A study of Mus musculus with 12 samples.

Results

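The genes of the synaptic vesicle and of the postsynaptic density were followed across RNA-seq libraries labelled as hippocampus from aged mice that received pyrroloquinoline quinone (PQQ), a redox cofactor with antioxidant activity. The members were a list of 35 gene symbols, and each was found as 1 row among the 27833 genes of the expression table. The rule that names them uses no measured value, but the list was chosen with earlier results of these data known. The data comprised 12 libraries from wild-type (WT) male C57BL/6J mice aged 20 months, so strain, sex and age were shared by all groups and no young mice were included. The control (CON, n = 3 libraries) received normal saline, the low-dose group (PQQ-L, n = 5) received PQQ at 5 mg/kg/day and the high-dose group (PQQ-H, n = 4) at 10 mg/kg/day, all by oral gavage for 14 days. The study assigned 6 mice to each group, but the labels do not state that each library is a separate mouse, so the p-values measure the spread between libraries. The values are FPKM (fragments per kilobase of gene and per unit of sequencing depth), which divides by gene length, so levels of different genes can be set side by side.

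At a chemical synapse, transmitter is loaded into vesicles, which dock at the active zone and fuse with the presynaptic membrane when calcium enters. Fusion is carried out by SNARE proteins under the control of synaptotagmins and complexins, and neurexins and neuroligins hold the presynaptic and postsynaptic membranes together. Opposite the active zone, the postsynaptic density of excitatory synapses is a scaffold of PSD-95, SAPAP, Shank and Homer proteins that anchors glutamate receptors and CaM kinase II. In the hippocampus these proteins underlie the synaptic plasticity on which spatial and recognition memory depend.

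The libraries held between 29654553 and 38179496 reads on genes, and the members had between 1162 and 152362 reads in each library, so that counting error was small beside the spread between libraries. The labelled tissue was checked against markers before the members were compared. In 4 libraries (CON 1, CON 3, PQQ-H 1 and PQQ-H 2), 8 markers of hippocampal neurons summed to 8.46 to 65.2 FPKM, against 104 to 373 in the other 8 libraries. The same 4 libraries held 10 markers of striatal neurons at a summed 1327 to 3327 FPKM, against 37.2 to 177 in the others. No marker on either list was at 0 in these 4 libraries, but C1ql2, a marker of dentate granule cells, was at 0.183 FPKM in CON 1 and between 14.5 and 68.2 in the other 8 libraries. Oligodendrocyte markers (6 genes, 1625 to 2557 against 867 to 1534 FPKM) and microglial markers (6 genes, 251 to 318 against 180 to 224 FPKM) were also higher there, while the members of a list of 8 general neuronal markers went both ways (summed 806 to 936 against 918 to 952 FPKM). The mean log2 deviation of these 8 genes was -0.26 to -0.02 in the 4 libraries and 0.01 to 0.15 in the others. Stmn2 (96.6 to 142 against 173 to 199.7 FPKM) and Nefl (113 to 136 against 147 to 209 FPKM) were below all other libraries there, whereas Tubb3, Eno2 and Nefm reached their highest values among them. By group, the summed striatal markers ranged from 53.2 to 3327 FPKM in CON, from 41.1 to 177 in PQQ-L and from 37.2 to 2497 in PQQ-H, and the hippocampal markers from 8.46 to 213, from 104 to 286 and from 43.9 to 373. A further 10 markers, of the choroid plexus, summed to 1548 to 5448 FPKM in CON, 50.2 to 124 in PQQ-L and 21.4 to 35.1 in PQQ-H, so their summed level followed the groups. PQQ-L was thus the 1 group that held none of the 4 libraries. In these 4 libraries the markers thus went against the hippocampus label, and what tissue they hold cannot be told from the labels. The member results are therefore given with all 12 libraries and also without these 4, which leaves CON 2 alone, 5 PQQ-L and 2 PQQ-H libraries. CON 2 was itself high in markers of thalamic neurons. The mean log2 deviation of 6 such markers was 1.87 in CON 1 and 1.67 in CON 2, against 0.26 or less in the others. Calb2, on that list, went otherwise, with 4.62 FPKM in CON 1, 48.2 in CON 2 and 79.6 in PQQ-L 3.

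None of the 35 synaptic genes differed between any 2 groups at an adjusted p below 0.05 (limma on log2(FPKM + 0.1), moderated test, Benjamini-Hochberg over the 13796 genes whose FPKM averaged 0.5 or more). The 35 members all passed this filter. The background for that count was 0.587% of all genes in PQQ-L vs. CON, 1.09% in PQQ-H vs. CON and 0% in PQQ-H vs. PQQ-L. At an unadjusted p below 0.05, 12 members were higher and 0 lower in PQQ-L than in CON, where 8.92% of all genes were higher and 11.6% lower. In PQQ-H vs. CON the counts were 0 higher (background 1.85%) and 0 lower (7.88%), and in PQQ-H vs. PQQ-L 0 higher (3.55%) and 5 lower (4.6%). The median log2 fold change (log2FC) over the members was 0.32 in PQQ-L vs. CON, with 29 above 0 and 6 below, whereas the median of all genes was -0.03. In PQQ-H vs. CON it was 0.13 (all genes -0.03), and in PQQ-H vs. PQQ-L it was -0.18 (all genes -0.02). All 3 medians kept their sign with median-of-ratios scaling, TPM and quantile normalization. The split of all genes into higher and lower depended on the scaling, with 12.8% higher and 8.86% lower in PQQ-L vs. CON after median-of-ratios scaling, 13.0% and 6.76% in TPM and 13.7% and 8.80% after quantile normalization. For PQQ-H vs. CON it was 4.51% and 5.40% after median-of-ratios scaling, with 4.47% and 5.49% after quantile normalization, but 1.37% and 7.61% in TPM. In PQQ-H vs. PQQ-L it went opposite ways, with 5.36% higher and 3.20% lower after median-of-ratios scaling, 4.16% and 3.65% after quantile normalization, but 1.64% and 8.44% in TPM. The members lower there numbered 3, 7 and 6 under these 3 scalings. The comparisons share libraries, so their values are not independent of each other.

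Without the 4 libraries high in striatal markers the median log2FC of the members was -0.01 in PQQ-L vs. CON, with 15 members above 0 and 20 below. It was -0.06 in PQQ-H vs. CON and -0.04 in PQQ-H vs. PQQ-L. In these fits the single CON library was assumed to vary like the libraries of the other groups. Leaving out CON 2 had the opposite effect, with a median of 0.50 in PQQ-L vs. CON. There 20 members had a limma adjusted p below 0.05, as did 3225 of all 13777 genes tested. Leaving out CON 1 gave a median of 0.18 and 1 member, Rims1, higher at an unadjusted p below 0.05 (1.06% of all genes). The count of members higher by that rule was 4 without CON 3 (5.12% of all genes) and 6 without PQQ-L 4 (5.55%). The median of PQQ-H vs. CON turned to -0.05 without CON 1, was 0.05 without PQQ-H 3 and 0.26 without CON 2. Without CON 2, 10 members were higher there by that rule (9.05% of all genes). In PQQ-H vs. PQQ-L the count lower was 1 without PQQ-L 3 (2.37% of all genes), 8 without CON 2 (7.56%) and 10 without PQQ-H 3 (5.47%). The count was between 2 and 3 without any 1 of PQQ-L 4, PQQ-L 5, PQQ-H 1, PQQ-H 2 and PQQ-H 4 (3.15% to 4.59%). In bulk tissue, fewer cells of a type and less RNA per cell cannot be told apart.

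**Figure D1:**
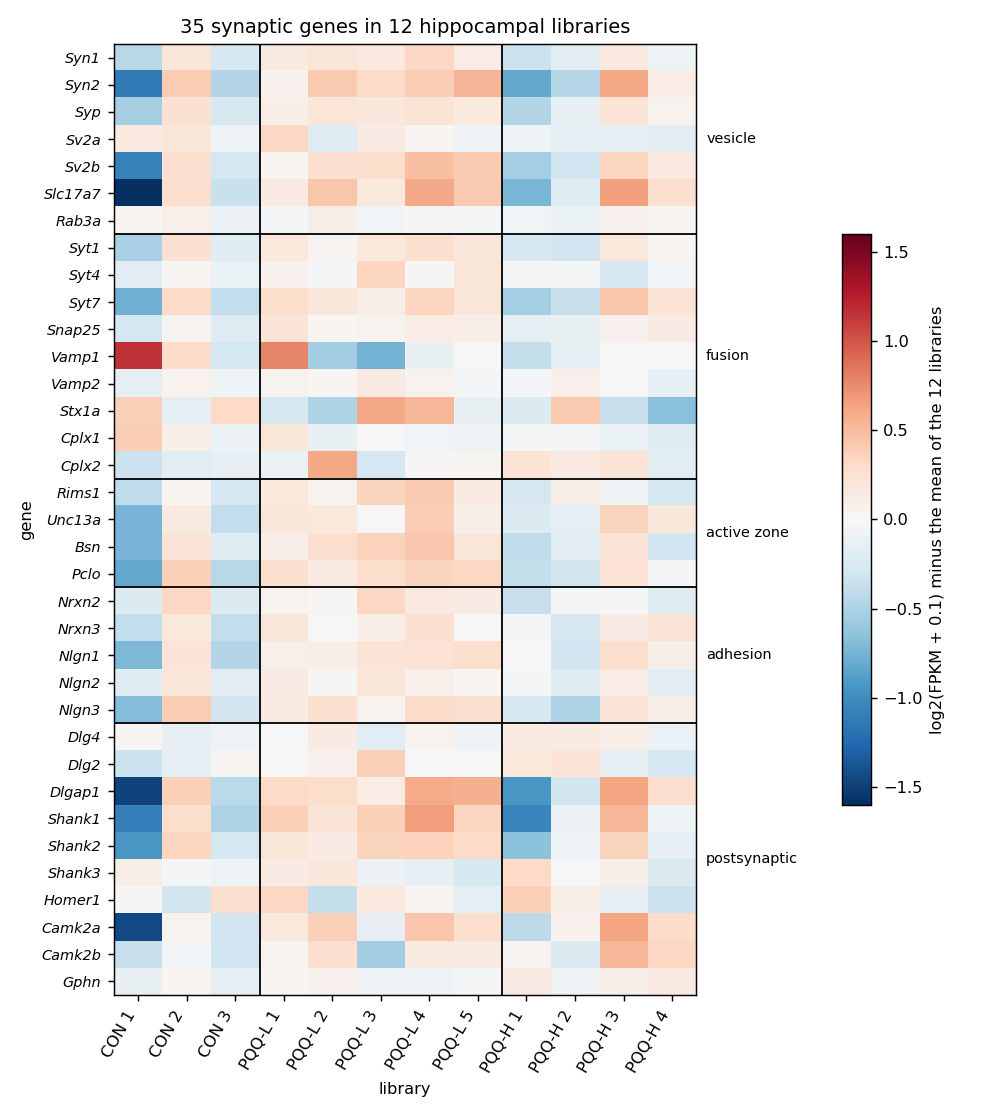
Each row is 1 of the 35 synaptic genes, ordered by role, and each column 1 of the 12 libraries. The colour gives log2(FPKM + 0.1) minus the mean of the 12 libraries, blue below and red above. CON 1 is the bluest column, with a median of -0.40 over the 35 genes, and the 5 PQQ-L columns have medians between 0.13 and 0.23.

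Library by library, the median deviation of the 35 members from their 12-library means was -0.40 in CON 1, 0.19 in CON 2 and -0.25 in CON 3. It was 0.14, 0.13, 0.16, 0.23 and 0.13 in PQQ-L 1 to 5, and -0.22, -0.12, 0.16 and -0.04 in PQQ-H 1 to 4. The CON group therefore held both the lowest libraries and 1 library at the level of PQQ-L. CON 2 lay within the PQQ-L range for 30 of the 35 members, below it for 2 and above it for 3. CON 1 lay below the PQQ-L range for 26 members and CON 3 for 25. For 15 members (42.9%) the 4 libraries high in striatal markers were the lowest 4 of the 12, which was the case for 14.3% of all genes tested, and for 0 members they were the highest 4 (10.7% of all genes). These 15 were Syn1, Syn2, Syp, Sv2b, Slc17a7, Syt1, Syt7, Snap25, Unc13a, Pclo, Nrxn3, Nlgn1, Nlgn3, Dlgap1 and Shank1. Of the 12 members higher in PQQ-L vs. CON at an unadjusted p below 0.05, 9 (75.0%) were among them, and of the 1231 genes higher by the same rule 56.7% had this order.

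Among the 7 genes of vesicle proteins, Slc17a7, Sv2b and Syn1 were higher in PQQ-L than in CON at an unadjusted p below 0.05 (8.92% of all genes). After adjustment 0 passed. Slc17a7 encodes VGLUT1, the transporter that loads glutamate into vesicles of hippocampal and cortical neurons. It was at 118, 461 and 297 FPKM in CON 1 to 3, at 414, 517, 424, 575 and 505 in PQQ-L 1 to 5, and at 229, 331, 599 and 452 in PQQ-H 1 to 4. Its highest library was thus 5.10 times its lowest, the widest spread among the members, and CON 2 lay inside the PQQ-L range. The log2FC was 0.94 in PQQ-L vs. CON (SE 0.39, limma adjusted p = 0.237) and 0.58 in PQQ-H vs. CON (SE 0.41, limma adjusted p = 0.720). Without the 4 libraries the differences were 0.07 and 0.17.

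Syn1 encodes synapsin I, which tethers vesicles to the actin cytoskeleton in the reserve pool. Its FPKM was 112, 175 and 128 in the CON libraries, 168, 174, 171, 192 and 167 in PQQ-L, and 120.3, 135, 171 and 144 in PQQ-H. CON 1, CON 3 and 3 of the PQQ-H libraries lay below all PQQ-L libraries. The log2FC was 0.36 in PQQ-L vs. CON (SE 0.14, limma adjusted p = 0.233) and -0.30 in PQQ-H vs. PQQ-L (SE 0.13, limma adjusted p = 0.580), and -0.01 and -0.15 without the 4 libraries. Sv2b, a vesicle glycoprotein of the SV2 family, was at 28.1, 71.7 and 48.9 FPKM in CON, 61.0, 71.4, 72.5, 83.4 and 79.6 in PQQ-L and 40.9, 47.8, 75.9 and 66.4 in PQQ-H. Its log2FC in PQQ-L vs. CON was 0.66 (SE 0.27, limma adjusted p = 0.235), or 0.03 without the 4 libraries.

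The paralogue Sv2a encodes the binding site of the antiepileptic levetiracetam. Sv2a was at 128, 131 and 109 FPKM in CON, 144, 99.0, 126, 118 and 110.3 in PQQ-L and 109, 103, 105 and 102 in PQQ-H. It was the only member whose PQQ-H libraries all lay below all CON libraries (background 5.72% of genes lower without overlap and 1.36% higher), by a small margin, with a log2FC of -0.23 (SE 0.12, limma adjusted p = 0.576). Synaptophysin (Syp), an abundant vesicle membrane protein, was at 370.0, 632 and 448 FPKM in CON, 568, 611, 604, 621 and 596 in PQQ-L and 385, 490.1, 617 and 555 in PQQ-H. The PQQ-L libraries of Syp stayed within 568 to 621 FPKM, while CON spanned 370.0 to 632. Syn2 (synapsin II) ranged from 46.0 to 156 FPKM over the libraries, lowest in CON 1 and highest in PQQ-H 3. Rab3a, the small GTPase that marks vesicles ready for docking, was the steadiest member. Its FPKM was 346, 359 and 319 in CON, 332, 363, 329.6, 344 and 334 in PQQ-L and 328, 316, 355 and 351 in PQQ-H, so its highest library was 1.15 times its lowest and its log2FC in PQQ-L vs. CON was -0.0010.

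Promoter sequences are shown for the vesicle gene of the widest spread (Slc17a7), the vesicle gene with an unadjusted p below 0.05 in 2 of the comparisons (Syn1) and the steadiest gene (Rab3a). They run from 250 bases before the annotated start to 50 bases after it and are read 5′ to 3′ on the strand of the gene. They were taken from RefSeq on build GRCm38.p6, which is not the build named for the reads (mm39), and 26 of the 35 members had such a sequence. Slc17a7 lies at chr7:45163671-45163970 on the plus strand, Syn1 at chrX:20920869-20921168 on the minus strand and Rab3a, the first of 2 listed starts, at chr8:70754453-70754752 on the plus strand. Capitals mark GC boxes (GGGCGG on either strand, overlapping matches included) and the cAMP response element (TGACGTCA, which reads the same on both strands).
Slc17a7: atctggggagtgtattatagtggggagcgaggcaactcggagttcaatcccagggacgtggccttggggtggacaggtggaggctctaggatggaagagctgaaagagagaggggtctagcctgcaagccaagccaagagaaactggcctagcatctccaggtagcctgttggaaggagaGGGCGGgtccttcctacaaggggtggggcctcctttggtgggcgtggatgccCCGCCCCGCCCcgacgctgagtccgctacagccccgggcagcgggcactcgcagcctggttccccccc
Syn1: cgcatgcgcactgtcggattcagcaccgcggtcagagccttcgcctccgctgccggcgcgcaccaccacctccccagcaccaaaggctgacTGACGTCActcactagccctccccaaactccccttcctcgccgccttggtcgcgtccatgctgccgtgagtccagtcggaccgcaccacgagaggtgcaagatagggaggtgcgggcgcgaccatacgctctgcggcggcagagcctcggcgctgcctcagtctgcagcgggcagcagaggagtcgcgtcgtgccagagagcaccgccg
Rab3a: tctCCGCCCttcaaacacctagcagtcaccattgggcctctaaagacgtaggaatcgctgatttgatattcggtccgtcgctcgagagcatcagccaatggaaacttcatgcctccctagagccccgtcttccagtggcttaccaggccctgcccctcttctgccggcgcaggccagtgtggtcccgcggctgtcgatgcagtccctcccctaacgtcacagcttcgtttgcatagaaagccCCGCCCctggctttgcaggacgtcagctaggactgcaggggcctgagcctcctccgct
A GC box was found in 19 of the 26 members (73.1%), with 3 in Slc17a7, 2 in Rab3a and 0 in Syn1, and in 38.2% of the 27025 genes with such a sequence. The cAMP response element was found in 1 of the 26 members, Syn1, and in 2.03% of all genes. These matches describe the letters of the windows, and their part in expression was not tested.

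For the 9 genes of fusion proteins the median log2FC in PQQ-L vs. CON was 0.20, with 6 above 0 and 3 below. At an unadjusted p below 0.05, 1 of the 9 was higher (8.92% of all genes). This was Snap25, a SNARE of the presynaptic membrane and the member of the highest mean level (784 FPKM). Snap25 was at 643, 802 and 677 FPKM in CON, 898, 797, 809, 845 and 839 in PQQ-L and 708, 720.0, 817 and 857 in PQQ-H. Among the CON libraries only CON 2 reached the PQQ-L range, as did PQQ-H 3 and PQQ-H 4. The log2FC was 0.25 in PQQ-L vs. CON (SE 0.10, limma adjusted p = 0.233), a 1.19-fold difference, and 0.06 without the 4 libraries. Vamp2, the SNARE of the vesicle membrane that pairs with Snap25, varied less, with 459, 532 and 487 FPKM in CON, 533, 523, 559, 531 and 504 in PQQ-L and 499.7, 539.8, 512 and 469 in PQQ-H. The log2FC of Vamp2 was 0.11 (SE 0.08, limma adjusted p = 0.357).

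Several synaptotagmins are calcium sensors of transmitter release. Syt1, the sensor of fast release, was at 186, 317 and 234 FPKM in CON, between 276 and 319.9 in PQQ-L and between 217 and 300.4 in PQQ-H (log2FC 0.32 in PQQ-L vs. CON, limma adjusted p = 0.252). Syt7, a slower sensor of higher calcium affinity, ranged from 13.3 FPKM in CON 1 to 31.0 in PQQ-H 3. Both had the 4 libraries high in striatal markers as their lowest. Syt4 did not, with 26.4, 30.3 and 27.5 FPKM in CON, 31.1, 29.2, 37.6, 29.9 and 33.9 in PQQ-L and 28.9, 29.3, 24.6 and 28.7 in PQQ-H. Its log2FC in PQQ-H vs. PQQ-L was -0.21 (SE 0.09, limma adjusted p = 0.580) and -0.28 without the 4 libraries.

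The 3 fusion genes with a log2FC below 0 in PQQ-L vs. CON were Vamp1, Stx1a and Cplx1. Vamp1, the paralogue of Vamp2 that prevails in the brainstem and spinal cord, was at 116, 63.8 and 42.8 FPKM in CON, 89.2, 35.3, 30.6, 47.9 and 52.3 in PQQ-L and 39.7, 46.6, 52.0 and 51.8 in PQQ-H. Cplx1, a complexin that clamps and then promotes fusion, was at 409, 333 and 292 FPKM in CON, 354, 286, 308, 302 and 294 in PQQ-L and 302, 304, 289 and 272 in PQQ-H. For both genes CON 1 was the highest of the 12 libraries. The log2FC in PQQ-L vs. CON was -0.52 for Vamp1 (limma adjusted p = 0.339) and -0.15 for Cplx1 (limma adjusted p = 0.372). Stx1a, the syntaxin that completes the SNARE complex, ranged from 21.3 to 52.1 FPKM with no order by group. Cplx2 had its highest value in PQQ-L 2 (338 FPKM) and lay between 174 and 257 FPKM in the other 11 libraries.

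In the active zone role all members, 4 of 4, were higher in PQQ-L than in CON at an unadjusted p below 0.05 (8.92% of all genes). Their log2FC lay between 0.44 and 0.57. Of 11 active zone genes outside the members, 3 were higher by the same rule. Without CON 1, Rims1 was the only member that was. Rims1, the scaffold that links vesicles to calcium channels, had the smallest p of all members. Its FPKM was 11.9, 16.3 and 13.1 in CON, 17.9, 16.5, 20.3, 21.2 and 17.6 in PQQ-L and 13.2, 16.9, 15.3 and 13.1 in PQQ-H. All PQQ-L libraries of Rims1 lay above all CON libraries, and Rims1 was the 1 member of which this was true (background 2.96% of genes higher without overlap and 7.66% lower, with 0 members lower), although PQQ-L 2 exceeded CON 2 by little. The log2FC was 0.44 in PQQ-L vs. CON (SE 0.13, limma adjusted p = 0.169) and -0.36 in PQQ-H vs. PQQ-L (SE 0.12, limma adjusted p = 0.580). Without the 4 libraries these differences were 0.19 and -0.40.

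Bsn and Pclo encode bassoon and piccolo, the giant scaffolds of the active zone. Bsn was at 9.75, 18.9 and 14.3 FPKM in CON, 17.6, 19.7, 21.2, 22.0 and 18.6 in PQQ-L and 12.3, 14.5, 19.1 and 13.2 in PQQ-H. CON 2 and PQQ-H 3 were the libraries outside PQQ-L that reached its range. The log2FC of Bsn was 0.51 in PQQ-L vs. CON (SE 0.19, limma adjusted p = 0.229) and -0.44 in PQQ-H vs. PQQ-L (SE 0.18, limma adjusted p = 0.580), and 0.06 and -0.31 without the 4 libraries. Pclo was at 4.59, 10.8 and 6.01 FPKM in CON, 9.81, 9.10, 9.99, 10.5 and 10.4 in PQQ-L and 6.31, 6.66, 9.65 and 8.01 in PQQ-H, and CON 2 was its highest library. Its log2FC of 0.57 in PQQ-L vs. CON (SE 0.22, limma adjusted p = 0.233) became -0.11 without the 4 libraries. Unc13a, the priming factor that makes docked vesicles ready to fuse, was at 15.6, 29.2 and 20.0 FPKM in CON, 29.8, 29.6, 26.3, 34.5 and 28.0 in PQQ-L and 22.7, 23.5, 33.7 and 29.9 in PQQ-H. Its log2FC was 0.50 in PQQ-L vs. CON (SE 0.19, limma adjusted p = 0.230) and 0.37 in PQQ-H vs. CON (SE 0.20, limma adjusted p = 0.593), or 0.02 and 0.12 without the 4 libraries.

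**Figure D2:**
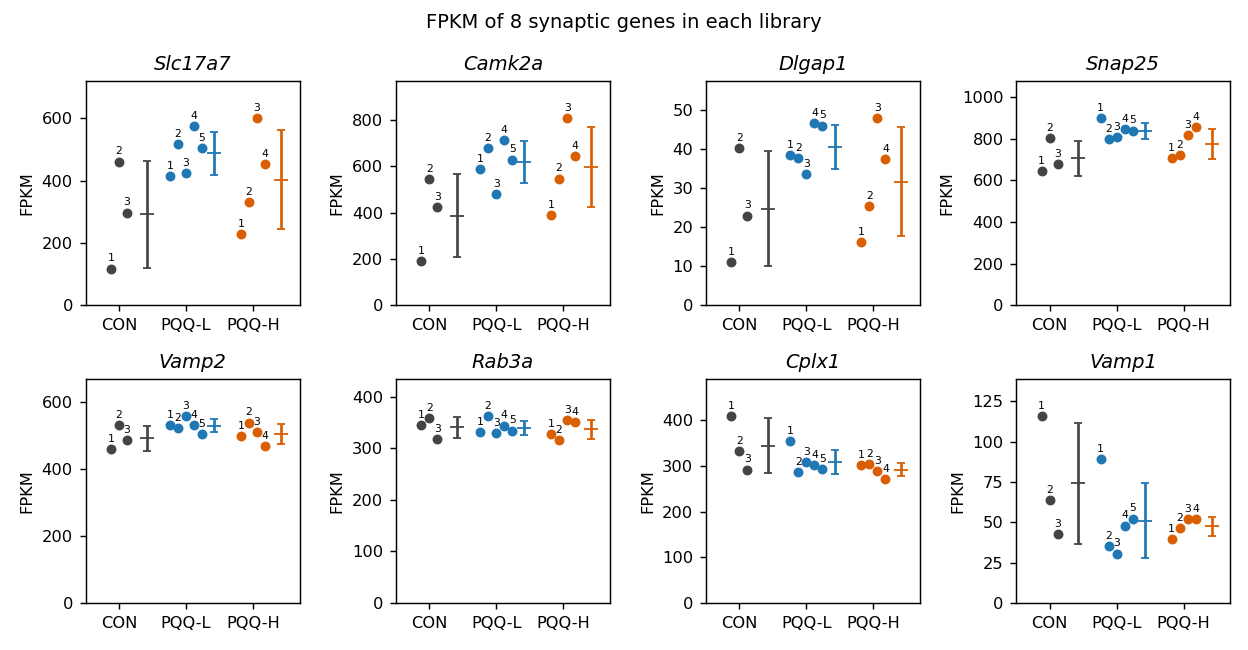
Points are the FPKM of single libraries with their replicate numbers for 8 of the synaptic genes, and the bar beside each group is the mean ± SD (CON n = 3, PQQ-L n = 5, PQQ-H n = 4). Slc17a7, Camk2a and Dlgap1 are lowest in CON 1 and spread widely in CON and PQQ-H, Vamp2 and Rab3a stay level, and Cplx1 and Vamp1 are highest in CON 1.

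Of the 5 adhesion genes, 5 had a log2FC above 0 in PQQ-L vs. CON. At an unadjusted p below 0.05, 1 of them, Nlgn1, was higher (8.92% of all genes). Nlgn1 encodes the neuroligin of excitatory synapses and was the member of the lowest mean level (3.83 FPKM). It was at 2.23, 4.34 and 2.67 FPKM in CON, 3.97, 4.04, 4.37, 4.41 and 4.57 in PQQ-L and 3.77, 3.01, 4.58 and 3.99 in PQQ-H, with a log2FC of 0.51 in PQQ-L vs. CON (SE 0.19, limma adjusted p = 0.224) and -0.02 without the 4 libraries. Nlgn2, the neuroligin of inhibitory synapses, spanned 37.5 to 49.3 FPKM. Its libraries were 37.7, 49.1 and 38.3 FPKM in CON, 46.9, 43.5, 49.3, 45.7 and 44.0 in PQQ-L and 42.1, 37.5, 46.6 and 38.0 in PQQ-H (log2FC 0.15 in PQQ-L vs. CON, limma adjusted p = 0.354). Nlgn3, found at both kinds of synapse, ranged from 8.42 FPKM in CON 1 to 18.1 in CON 2, so the CON group held its lowest and its highest library.

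Neurexins are the presynaptic partners of neuroligins. Nrxn2 was at 41.4, 60.5 and 41.4 FPKM in CON, 49.8, 48.8, 60.5, 53.6 and 52.5 in PQQ-L and 37.1, 47.4, 47.6 and 42.2 in PQQ-H. All PQQ-H libraries of Nrxn2 lay below all PQQ-L libraries, the 1 member with this order (background 3.33% of genes lower without overlap and 1.42% higher, with 0 members higher). The log2FC in PQQ-H vs. PQQ-L was -0.29 (SE 0.12, limma adjusted p = 0.580) and -0.24 without the 4 libraries. Nrxn3 lay between 11.1 and 17.6 FPKM, with a log2FC of 0.32 in PQQ-L vs. CON (limma adjusted p = 0.246).

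In the postsynaptic density, Camk2a, Dlgap1 and Shank1 were higher in PQQ-L than in CON at an unadjusted p below 0.05 (8.92% of all genes). The other 7 of the 10 genes were not. Camk2a, the alpha subunit of CaM kinase II and a kinase of long-term potentiation, was at 191, 543 and 424 FPKM in CON, 588, 679, 479, 711 and 629 in PQQ-L and 391, 546, 806 and 642 in PQQ-H. Its log2FC was 0.79 in PQQ-L vs. CON (SE 0.31, limma adjusted p = 0.233) and 0.71 in PQQ-H vs. CON (SE 0.33, limma adjusted p = 0.515). Without the 4 libraries the differences were 0.17 and 0.41. The beta subunit gene Camk2b was at 165, 206 and 171 FPKM in CON, 219, 257, 145, 235 and 236 in PQQ-L and 221, 183, 308 and 268 in PQQ-H. Its mean was 181 ± 22.3 (SD, n = 3) in CON and 245 ± 54.7 (SD, n = 4) in PQQ-H (log2FC 0.42, limma adjusted p = 0.570), and without the 4 libraries this difference was 0.48.

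Dlgap1 encodes SAPAP1, the linker between PSD-95 and the Shank scaffolds. It was at 11.0, 40.2 and 22.9 FPKM in CON, 38.4, 37.7, 33.6, 46.6 and 45.9 in PQQ-L and 16.1, 25.3, 47.8 and 37.4 in PQQ-H, and the 4 libraries high in striatal markers lay below the other 8. The log2FC was 0.89 in PQQ-L vs. CON (SE 0.40, limma adjusted p = 0.240) and -0.0036 without the 4 libraries. Shank1 had the same order, with 10.2, 26.5 and 15.5 FPKM in CON, 28.5, 25.3, 28.6, 34.9 and 27.8 in PQQ-L and 10.6, 20.4, 31.5 and 20.7 in PQQ-H. Its log2FC was 0.83 in PQQ-L vs. CON (SE 0.33, limma adjusted p = 0.234) and -0.57 in PQQ-H vs. PQQ-L (SE 0.31, limma adjusted p = 0.580), or 0.12 and -0.18 without the 4 libraries. Its paralogue Shank2 ranged from 2.80 FPKM in CON 1 to 7.08 in PQQ-L 4. Shank3, by contrast, was highest in PQQ-H 1 (19.5 FPKM) and lay between 13.1 and 17.8 FPKM in the other 11 libraries, with a log2FC of -0.03 in PQQ-L vs. CON.

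The remaining postsynaptic genes are scaffolds, of which Dlg4 and Gphn had the narrower ranges. Dlg4, which encodes PSD-95, lay between 92.5 and 116 FPKM in all 12 libraries (log2FC 0.05 in PQQ-L vs. CON, 0.13 in PQQ-H vs. CON, limma adjusted p = 0.707 in both). Dlg2 (PSD-93) lay between 5.42 and 9.03 FPKM, and Homer1, which couples Shank to metabotropic glutamate receptors, between 5.60 and 9.56 FPKM with group means of 7.39, 7.44 and 7.47. Gphn encodes gephyrin, the anchor of glycine and GABA-A receptors, and lay between 4.10 and 5.04 FPKM. None of these 4 genes had an unadjusted p below 0.05 with all 12 libraries. Under other settings Gphn was higher in PQQ-H than in CON by that rule after median-of-ratios scaling and quantile normalization, and Dlg2 was higher in PQQ-L than in CON in TPM and with either marker score as a covariate.

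**Figure D3:**
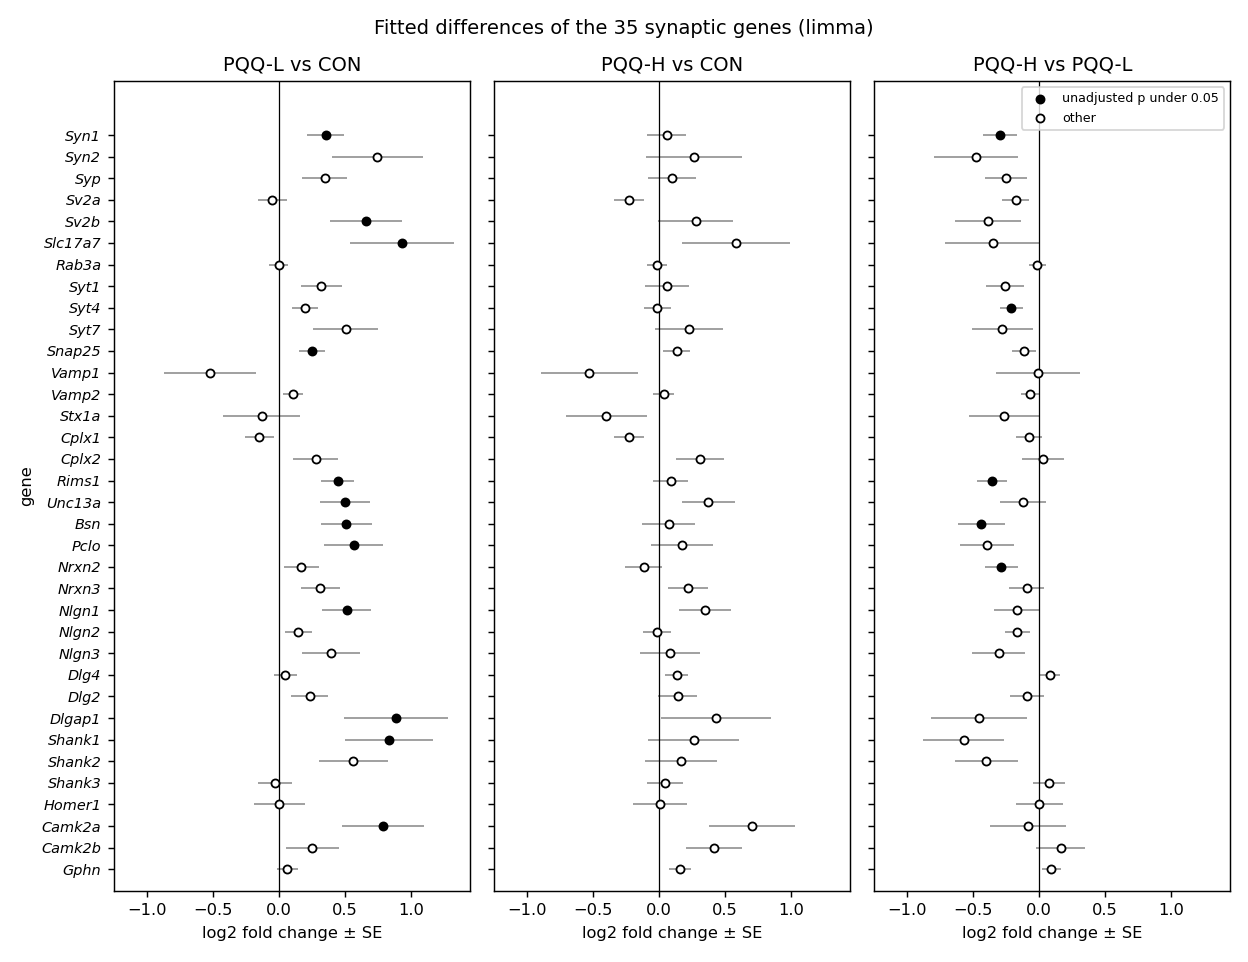
Each point is the fitted log2FC of 1 synaptic gene on the log2(FPKM + 0.1) scale and the line is ± 1 standard error, for the 3 comparisons of the groups. Filled points have an unadjusted limma p below 0.05. In PQQ-L vs. CON this holds for 12 genes, all higher (8.92% of all genes higher, 11.6% lower). In PQQ-H vs. CON it holds for 0 (1.85% and 7.88%), and in PQQ-H vs. PQQ-L for 5, all lower (3.55% and 4.6%). No point has an adjusted p below 0.05.

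By role, the median log2FC in PQQ-L vs. CON was 0.36 for the vesicle genes, 0.20 for fusion, 0.51 for the active zone, 0.32 for adhesion and 0.24 for the postsynaptic genes. In PQQ-H vs. CON the same medians were 0.10, 0.04, 0.13, 0.09 and 0.16. The dose groups differed most in the active zone, where the median in PQQ-H vs. PQQ-L was -0.37, and least in the postsynaptic genes, where it was -0.04. The 5 members lower in PQQ-H than in PQQ-L at an unadjusted p below 0.05 (4.6% of all genes) were Syn1, Syt4, Rims1, Bsn and Nrxn2. Of these, 1 (Syn1) had the 4 libraries high in striatal markers as its lowest. Without those libraries 4 members met this rule, namely Rims1, Syt4, Nrxn2 and Dlg2, where 8.68% of all genes did.

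**Figure D4:**
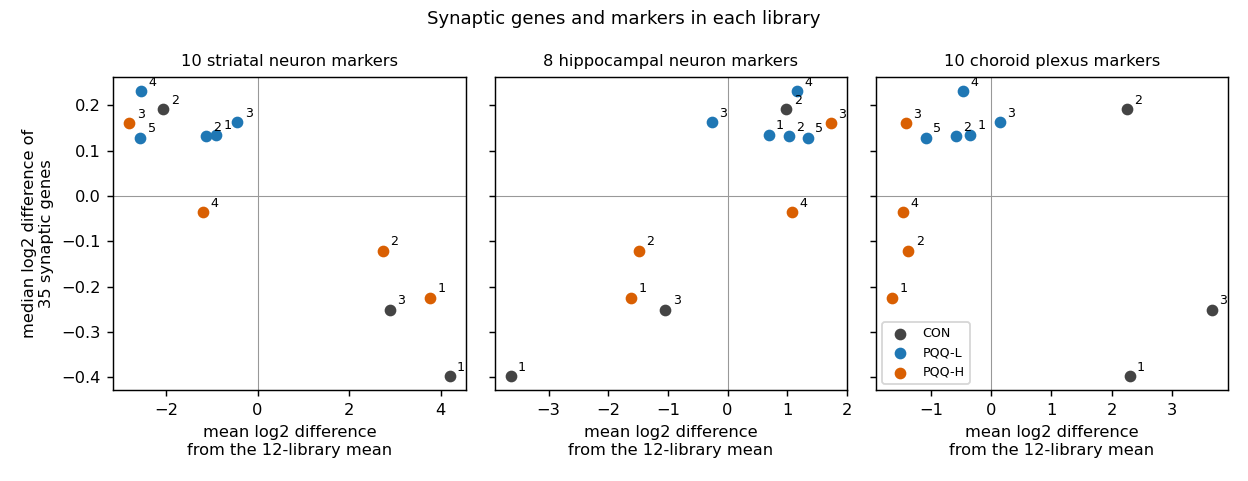
The vertical axis is the median log2 deviation of the 35 synaptic genes in each library from their 12-library means, and the horizontal axes are the mean log2 deviations of the striatal, hippocampal and choroid plexus markers. Each point is 1 library with its replicate number. The 4 libraries with positive striatal scores have medians of -0.40 to -0.12, and CON 2 lies with PQQ-L on the first and second panels but with CON on the third.

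The summed choroid plexus markers separated CON from both PQQ groups, which the member medians did not. Ttr made up most of that sum (3615 of 3683 FPKM in CON 1). Kl and Prlr did not follow it, and both were lowest in CON 1 (0.750 and 0.0342 FPKM). CON 2 had a summed choroid plexus level of 1548 FPKM, above all PQQ libraries, and a member median of 0.19, inside the PQQ-L range of 0.13 to 0.23. PQQ-H 1 and PQQ-H 2 had choroid plexus levels within 21.4 to 35.1 FPKM and member medians of -0.22 and -0.12. With the striatal score as a covariate the member median in PQQ-L vs. CON was 0.12 and 2 members (Rims1 and Dlg2) were higher at an unadjusted p below 0.05. Over all genes 2.15% were higher and 5.18% lower in that fit. With the choroid plexus score in place of the striatal score the median was 0.26, and 1 member (Dlg2) was higher and 1 (Vamp1) lower by the same rule. Over all genes the choroid plexus score gave 1.38% higher and 1.17% lower. That score turned the median of PQQ-H vs. CON to -0.03, with 16 members above 0 and 19 below.

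Ratios of related genes within a library do not depend on how the library is scaled. Over 10 pairs and 3 comparisons, 0 of 30 exact permutation tests (two-sided) had an adjusted p below 0.05, the lowest being 0.446. The smallest p that these tests can give is 0.0357 in PQQ-L vs. CON, 0.0571 in PQQ-H vs. CON and 0.0159 in PQQ-H vs. PQQ-L. An adjusted p cannot be below these, so no pair could pass in PQQ-H vs. CON. In the other comparisons a pair could pass only if many of the 30 tests had very small p-values. The count of 0 therefore cannot decide whether a single ratio differed. The Camk2a to Camk2b log2 ratio was 0.97 ± 0.66 (SD, n = 3) in CON and 1.51 ± 0.14 (SD, n = 5) in PQQ-L, a difference of 0.54 at the smallest possible p of that exact permutation test (0.0357, adjusted 0.446). It was 0.21 in CON 1, below the range of 0.82 to 1.73 of all PQQ libraries. For Cplx1 to Cplx2 the log2 ratio was 0.85 ± 0.35 (SD, n = 3) in CON and 0.31 ± 0.13 (SD, n = 4) in PQQ-H (exact permutation test, p = 0.0571, adjusted 0.446). The Slc17a7 to Syp ratio ranged from -1.65 to -0.46 on the log2 scale in CON and from -0.51 to -0.11 in PQQ-L, with an overlap between the groups (exact permutation test, p = 0.107, adjusted 0.446).

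A further 83 synaptic genes of the same 5 roles were examined, of which 82 passed the filter. Of these, 0 had an adjusted p below 0.05 in any comparison. At an unadjusted p below 0.05, 19 were higher and 2 lower in PQQ-L than in CON, 6 higher and 3 lower in PQQ-H than in CON, and 1 higher and 8 lower in PQQ-H than in PQQ-L, with median log2FC of 0.22, 0.07 and -0.15. The shares of all genes higher and lower were 8.92% and 11.6%, then 1.85% and 7.88%, and then 3.55% and 4.6%. By the smallest p in each comparison, the leading genes were Syt9, Rimbp2 and Erc2, then Doc2b, Rims3 and Syt9, and then Ptprd, Syngr1 and Slc6a17. The 11 other active zone genes had a median of 0.08 in PQQ-L vs. CON, with 7 above 0 and 4 below, and of -0.10 in PQQ-H vs. CON. Rims3, a short member of the Rims family, was at 38.3, 25.7 and 19.1 FPKM in CON, between 9.35 and 24.4 in PQQ-L and between 7.88 and 18.3 in PQQ-H, with a log2FC of -0.70 in PQQ-L vs. CON (limma adjusted p = 0.263) and -1.13 in PQQ-H vs. CON (limma adjusted p = 0.316). Erc2, an active zone scaffold that binds Rims1, was at 9.82, 24.2 and 15.6 FPKM in CON and between 22.0 and 28.5 in PQQ-L (log2FC 0.73, limma adjusted p = 0.221). Rimbp2, which ties Rims proteins to calcium channels, was at 6.17, 11.3 and 8.81 FPKM in CON and between 11.5 and 13.8 in PQQ-L (log2FC 0.54, limma adjusted p = 0.219), without overlap between the groups (background 2.96% of genes higher without overlap and 7.66% lower). Syt9, a synaptotagmin of striatal and limbic neurons, was at 10.7, 6.67 and 3.11 FPKM in CON and between 1.05 and 5.09 in PQQ-L (log2FC -1.73, limma adjusted p = 0.206).

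By transcript length, 15 of the 35 members fell in the longest of 5 length classes of equal size, 9 in the next, 5 in the third, 5 in the second and 1 in the shortest. In PQQ-L vs. CON the median log2FC of all genes ran from -0.21 in the shortest class to 0.17 in the longest, and the 15 members of the longest class had a median of 0.51. In PQQ-H vs. PQQ-L the corresponding medians of all genes ran from 0.11 to -0.14, and the 15 members had a median of -0.28. The part of transcript length in the members' differences was not tested. Names of 7 libraries open with the letter L and of 5 with R, which the labels do not explain. Within L the member median in PQQ-L vs. CON was 0.19 (2 libraries against 2) and within R it was 0.49 (3 against CON 1 alone). In PQQ-H vs. CON it was -0.06 within L (3 against 2) and 0.42 within R (PQQ-H 4 alone against CON 1 alone).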

How the data were processed

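RNA-seq was performed on 12 libraries of aged mice labelled as hippocampus, of which 4 (CON 1, CON 3, PQQ-H 1 and PQQ-H 2) had markers that went against this label. Per the study's methods, the authors trimmed reads with fastp, aligned them with HISAT2, counted them per gene with HTSeq-count and tested them with DESeq2, and the submitters' processing notes name the build mm39. The values used here are the FPKM deposited by the authors for 27833 genes. Within a tolerance of 0.02, the FPKM of all 25563 genes above 0 in at least 2 libraries came out as whole reads (100%), which gave totals of 29654553 to 38179496 reads per library. The depth limits the precision of the members little, since each had at least 1162 reads in every library.

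The 13796 genes whose FPKM averaged 0.5 or more were tested as log2(FPKM + 0.1) in 1 limma model over the 3 groups (limma 3.58.1, R 4.3.3) with Benjamini-Hochberg adjustment over all of them. A fold change on this scale understates that of low genes. Ratios of related genes were compared by two-sided exact permutation tests. Python 3.11.15 with numpy 2.4.6, pandas 2.3.3, scipy 1.17.1 and matplotlib 3.10.9 served for the rest, and the fit was tested on simulated data. The groups were taken from the treatment label. Alternatives were other pseudocounts, filters, scalings, covariates and weights, limma voom on the recovered reads, and each library left out. With limma voom, 12 members were higher in PQQ-L than in CON at an unadjusted p below 0.05 (9.63% of all genes higher, 11.6% lower). By that rule 0 differed in PQQ-H vs. CON (1.93% and 8.23%), and 5 were lower in PQQ-H vs. PQQ-L (3.25% and 4.90%). At an adjusted p below 0.05 voom called 0 members in each comparison, and 125, 152 and 0 of all genes.

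The members and the gene and marker lists were chosen with earlier results of these data known. Values in every library are given for members with an unadjusted p below 0.05 in a comparison and for at least the 2 members of the highest mean FPKM in each role, with others by range. Sv2a, Vamp1, Cplx1 and Rab3a were added for their values. Among the other synaptic genes, the 3 of the smallest p in each comparison are named.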

Additional observations from a re-analysis of the deposited data

Results flagged for a closer look

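In 3 of the 70 groups of 4 or 5 libraries looked at, 1 library stood apart from the rest of its group by Dixon's ratio of the gap to the nearest library over the whole range (above the 95% critical value), where chance gives about 1 in 20. Syt4 was at 24.6 FPKM in PQQ-H 3 and between 28.7 and 29.3 in the other PQQ-H libraries, with a ratio of 0.863. Dlg4 was at 98.6 FPKM in PQQ-H 4 and between 113 and 116 in the other PQQ-H libraries, with a ratio of 0.846. Dlg2 was at 9.03 FPKM in PQQ-L 3 and between 6.88 and 7.24 in the other PQQ-L libraries, with a ratio of 0.833.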

How the results depend on the processing

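No adjusted call was made among the members under any alternative, except that leaving out each library gave 0 to 20 in PQQ-L vs. CON, with 20 only without CON 2 (limma). Without CON 2, 3225 of all 13777 genes were called there. At an unadjusted p below 0.05 the members higher in PQQ-L than in CON numbered 21 in TPM (13.0% of all genes) and 20 after quantile normalization (13.7%). They numbered 2 with the striatal score (2.15%) and 1 with the choroid plexus score (1.38%) as a covariate. The choroid plexus score, which did not overlap between CON and the PQQ groups, also gave 1 lower (1.17%). Leaving out each library gave 1 to 22 higher, where 1.06% to 21.8% of all genes were higher, and 0 to 2 lower. The median log2FC was 0.12 with the striatal score, -0.0067 without the 4 libraries high in striatal markers and 0.18 to 0.50 with each library left out. Leaving out these 4 was an alternative chosen after seeing the data. In PQQ-H vs. CON, 2 members were higher after median-of-ratios scaling (4.51% of all genes), 2 after quantile normalization (4.47%) and 2 with the striatal score (3.88%). With only the 2 groups 1 was higher (0.923%) and 1 lower (5.74%). Array weights also gave 1 higher (1.65%) and 1 lower (4.57%). Each library left out gave 0 to 10 higher and 0 to 3 lower, where 0.77% to 9.05% of all genes were higher and 5.43% to 11.0% lower. In PQQ-H vs. PQQ-L the members lower numbered 3 after median-of-ratios scaling (3.20% of all genes), 8 with only the 2 groups (8.67%) and 9 with array weights (7.66%). They numbered 2 with the striatal score (6.71%, with 1 member higher) and 0 with the choroid plexus score (0.631%). Each library left out gave 1 to 10 lower (2.37% to 7.56%). The median there was -0.048 with the striatal score and -0.043 without the 4 libraries. The cause of these differences was not tested.

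The replicate numbers do not pair the libraries (10 pairs, correlations of deviations from -0.62 to 0.72, 4 over 0.1). With the number as a replicate block, 6 members were higher in PQQ-L than in CON (2.65% of all genes). In that fit 2 were lower in PQQ-H than in PQQ-L (2.76%), and the medians were 0.32, 0.12 and -0.19. For single members, 20 adjusted calls were gained, all without CON 2. With 0 adjusted calls in the main fit, none could be lost or reversed. Signs of the log2FC did change between settings. In PQQ-L vs. CON 29 members were above 0 and 6 below with all libraries, and 15 above and 20 below without the 4 libraries high in striatal markers. With 3 CON libraries, leaving out CON 1 or CON 2 moved the count of members higher in PQQ-L than in CON to 1 or 22. The share of all genes higher was then 1.06% or 21.8%. In PQQ-H vs. CON the median was -0.03 with the choroid plexus score, which cannot be separated from the treatment. It was -0.05 to 0.26 with each library left out.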
